A study of Mus musculus with 6 samples.

Results

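The nuclear genes for the subunits of the respiratory chain and ATP synthase were examined in mouse hepatocytes 4 days after delivery of Sox4. Members were taken by symbol: the numbered Nduf genes of complex I, Sdha to Sdhd of complex II, Cyc1 and the Uqcr genes of complex III, the Cox4 to Cox8 genes of complex IV, and the Atp5 genes of ATP synthase, also called complex V, with pseudogene symbols left out. The rule used names only and no measured value, although it was chosen with earlier results of these data known. It found 87 members among the 53599 symbols of the count table, of which 38 belonged to complex I, 4 to complex II, 9 to complex III, 19 to complex IV and 17 to complex V. Ndufa4 was counted with complex I by its symbol, although its protein is now placed in complex IV.

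Hepatocyte RNA was sequenced from 2 groups with 3 libraries each, which the study counts as separate mice. The Sox4 group received AAV8-TBG-HA-Sox4-P2A-Cre, an adeno-associated virus with HA-tagged mouse Sox4 joined to Cre recombinase by the self-cleaving P2A peptide. The empty vector (EV) group received AAV8-TBG-Cre, so both groups carried Cre, and both vectors used the hepatocyte promoter TBG. The labels give the genotype as WT, and the study's methods describe injection of Rosa26-LSL-Cas9-EGFP mice, in which Cre switches on Cas9 and EGFP. Livers were digested with liberase and hepatocytes were enriched on Percoll, and no sort for infected cells is described. P-values measure the spread between these libraries.

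The respiratory chain sits in the inner mitochondrial membrane. Complex I takes electrons from NADH and complex II takes them from succinate, ubiquinone carries them to complex III, cytochrome c carries them to complex IV, and complex IV passes them to oxygen. Complexes I, III and IV pump protons, and ATP synthase lets the protons back to make ATP. Complex II is built from nuclear genes alone, whereas the other complexes also hold subunits encoded by mitochondrial DNA. Hepatocytes are rich in mitochondria and use this ATP for gluconeogenesis, urea synthesis and export of plasma proteins.

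Total counts per library ranged from 15090629 to 16964860, and Sox4 itself had 2, 0 and 3 counts in EV and 21697, 15097 and 11816 counts in Sox4. Levels are given as CPM, the reads of a gene relative to its library's size after the trimmed mean of M-values (TMM) correction, and per-library values follow replicates 1, 2 and 3. The 100 most abundant genes took 44.7 ± 1.18% of all counts in EV and 37.8 ± 0.793% in Sox4 (SD, n = 3). The ratio of scaled library sizes, Sox4 over EV, was 1.48, against 1.07 for the total counts. Over the 12691 tested genes the log2 fold change had a median of 0.04 under TMM, which library size alone moved to 0.51, a shift of 0.47, and every change below is relative to the TMM scale unless library size is named. Of the hepatocyte markers, 6 of 8 were lower in Sox4, and their summed level was 120200, 142900 and 136400 CPM in EV and 82240, 81890 and 93110 CPM in Sox4. Markers of other liver cells are read beside 29.0% higher and 26.0% lower genes among all tested. Kupffer cell markers were higher for 4 of 9 genes (13.3, 24.8 and 28.7 CPM in EV and 28.9, 56.6 and 66.6 CPM in Sox4, summed), endothelial markers for 2 of 8 with 1 lower and overlapping sums (18.3, 27.1 and 34.2 CPM in EV and 17.6, 34.7 and 40.4 CPM in Sox4), stellate markers for 3 of 4 tested of 8 listed (10.5, 28.9 and 48.4 CPM in EV and 137, 146 and 88.7 CPM in Sox4), cholangiocyte markers for 2 of 4 tested of 8 listed (43.8, 27.7 and 35.2 CPM in EV and 84.96, 80.96 and 72.01 CPM in Sox4) and leukocyte markers for 1 of 2 tested of 6 listed (2.00, 5.16 and 5.23 CPM in EV and 6.87, 14.3 and 9.17 CPM in Sox4). Most of the stellate sum in each library came from Reln, so the sum alone does not show how the other stellate markers moved. All 4 tested stellate markers had log2 fold changes above 0, from 1.44 to 2.14 with a median of 2.03. Per kilobase of exon, Dcn had 0.437, 0.901 and 2.47 CPM in EV and 1.84, 6.40 and 8.76 CPM in Sox4. Ecm1 had 1.095, 1.199 and 1.949 CPM in EV and 1.952, 3.791 and 5.814 CPM in Sox4. Krt19 and Krt7, which define bile duct cells, had no count in EV. The muscle markers Myh1, Ckm, Tnnt3 and Myl1 had no count in any library, and the globin genes were at or below 1.12 CPM throughout, while Alas2, the erythroid heme synthesis enzyme, was lower in Sox4 (126, 106 and 92.5 CPM in EV and 14.6, 10.98 and 4.11 CPM in Sox4). The part of these cells in the results below was not tested.

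Most nuclear subunit genes of the respiratory chain were lower in Sox4 hepatocytes. Of the 87 members, 80 passed the filter on low counts, 75 of these were lower and 1 was higher, and 4 did not pass the test (quasi-likelihood test of edgeR, with p adjusted over all tested genes by Benjamini-Hochberg and a threshold of 0.05). The higher gene, Cox6b2, passed the filter only through its Sox4 counts. Lower genes thus made up 93.8% of the tested members, against a background of 26.0% of all tested genes, with 29.0% higher and 55.1% called in either direction. The median log2 fold change of the members was -0.94, a level of 52.3% of EV. In 76 of the 80 genes all 3 Sox4 libraries lay below all 3 EV libraries, compared with 29.9% of all tested genes. RNA from a population of cells cannot tell fewer cells that express a gene from less RNA per cell.

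**Figure D1:**
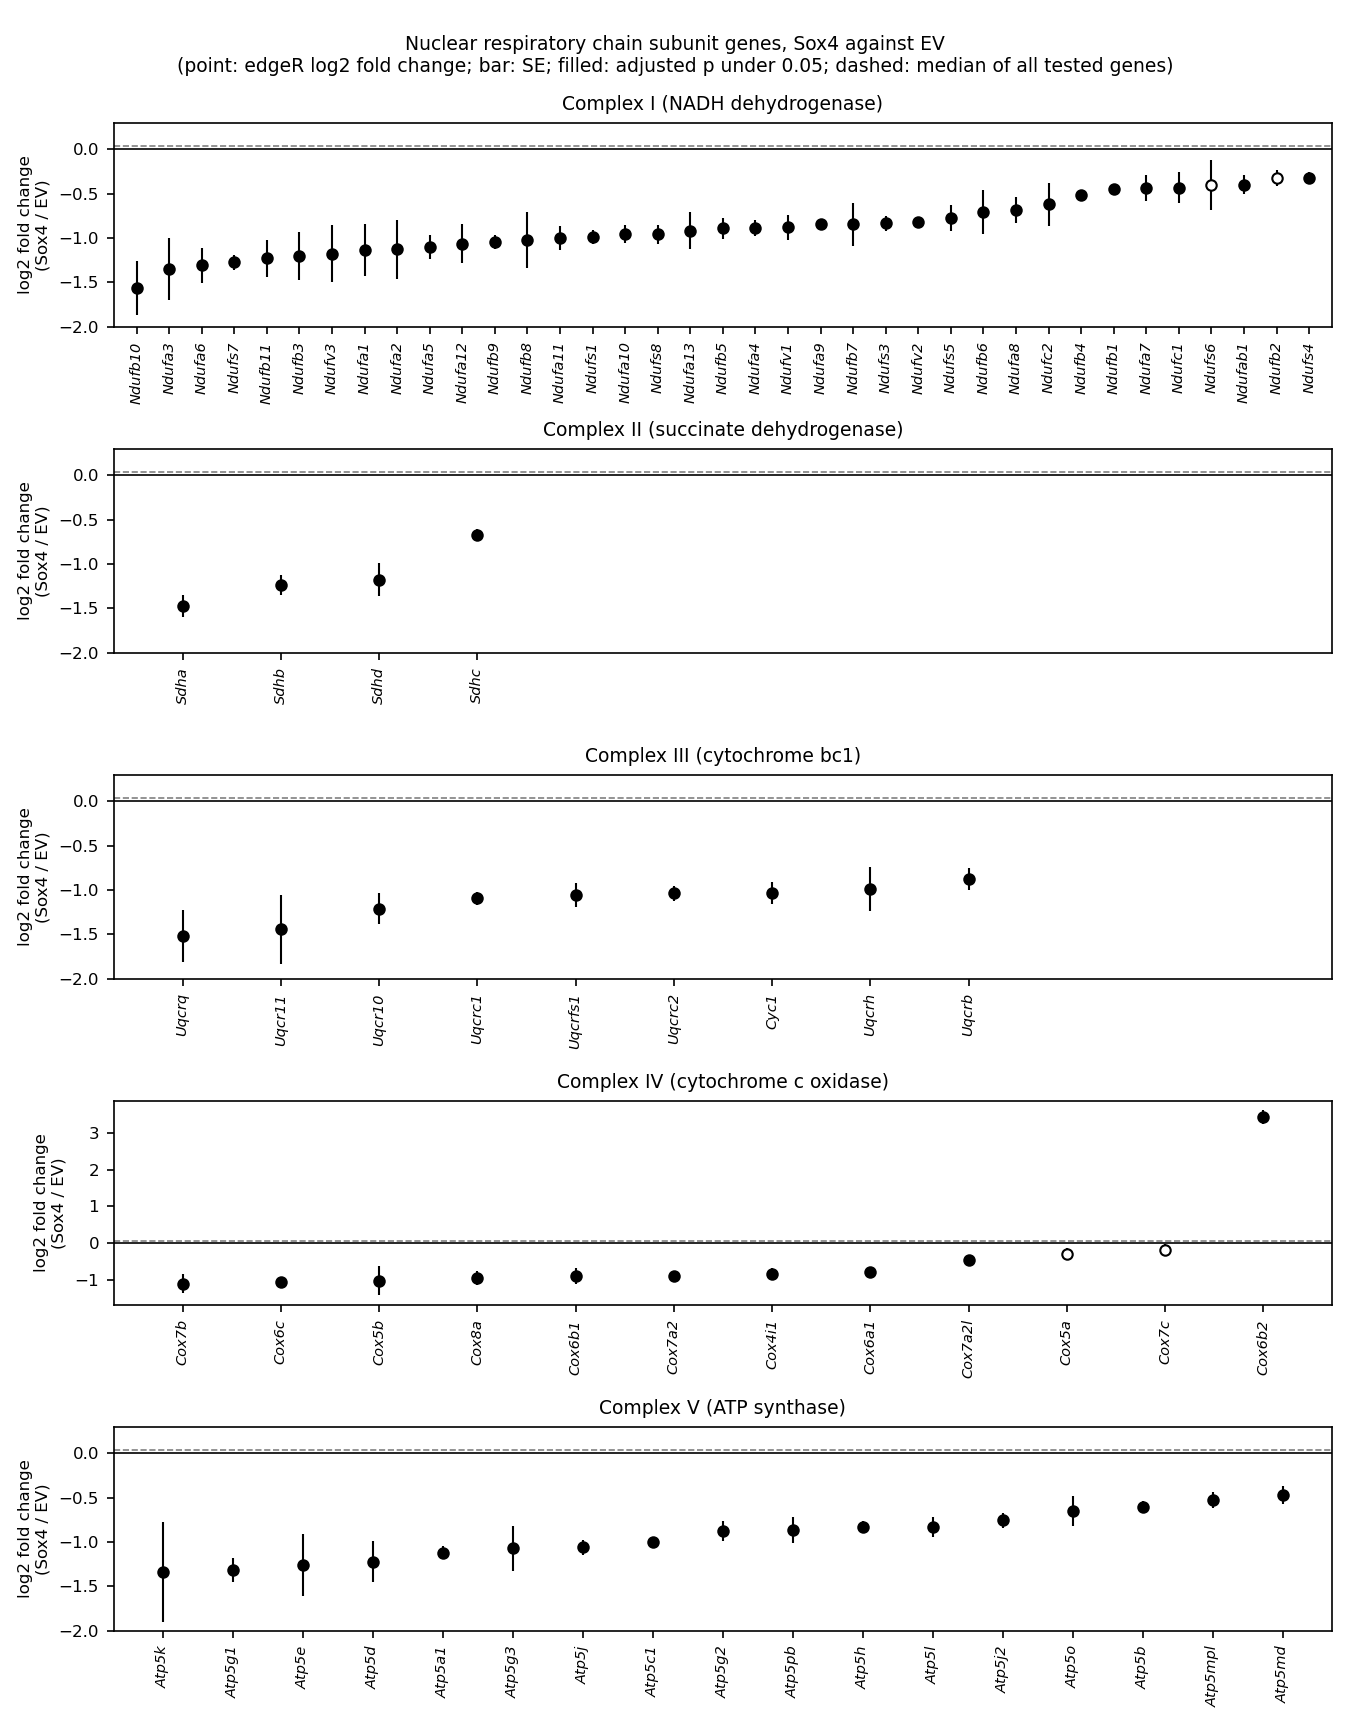
Log2 fold change (Sox4 over EV, TMM scaling) of 79 of the 80 tested subunit genes, by complex and in ascending order, with the standard error (n = 3 libraries per group). Filled points passed the test, open points did not, and the dashed line is the median of all tested genes at 0.04. The complex IV axis differs from the others to hold Cox6b2, whose plotted value rests on 1 to 2 EV counts per library. Apart from Cox6b2, each point lies below 0, from -1.56 for Ndufb10 to -0.19 for Cox7c.

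The direction was shared by all complexes, and complex II had the lowest median. All 4 complex II genes, all 9 complex III genes and all 17 complex V genes were lower, together with 36 of 38 in complex I and 9 of 12 tested in complex IV. Median log2 fold changes were -1.21 in complex II, -1.06 in complex III, -0.89 in complex I, -0.88 in complex IV and -0.88 in complex V. Differences between complexes were not tested. The summed level of the members was 13850, 12740 and 12020 CPM in EV and 7467, 6143 and 6781 CPM in Sox4, so that every Sox4 library was below every EV library.

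With library size alone the fall was smaller. The median of the members became -0.47, 52 genes were lower and 1 was higher, against backgrounds of 12.8% lower and 51.0% higher, and 69 of 80 fold changes stayed below 0. Complex III kept 9 of 9 lower genes and complex II 3 of 4, whereas complex I had 22 of 38, complex V 12 of 17 and complex IV 6 of 12. The share of all counts divides by library totals, as library size alone does, so its direction is no separate check. Members took 1.19%, 1.07% and 1.02% of all counts in EV and 0.878%, 0.721% and 0.797% in Sox4, a mean of 1.09 ± 0.09% (SD, n = 3) against 0.799 ± 0.079%, or 0.731 of the EV share. The share in Sox4 was 0.595 of that in EV for complex II, 0.639 for complex III, 0.749 for complex V, 0.762 for complex I and 0.811 for complex IV.

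Level and length were set beside the fall, because the members are abundant and short. Lengths were taken from the GENCODE M21 models for the 76 tested members with a length and counts above the floor. Their exons together spanned a median of 992 bases, with a range from 371 to 4912 bases. Of the 80 tested members, 75 reached 30 CPM in EV. Among tested genes that are no members, 45.4% of the 4366 genes at 30 CPM or more in EV were lower (median -0.28), as were 28.3% of the 816 genes under 1000 bases (median -0.31) and 57.2% of the 152 genes that met both limits (median -0.49). The level limit used the EV mean, which is also the base of the fold change. It therefore favours genes that are higher in EV, and the size of this effect was not tested. Members under 1000 bases were lower in 36 of 39 cases with a median of -0.91, and longer members in 36 of 38 with a median of -0.99. Short and long members thus had similar medians.

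**Figure D2:**
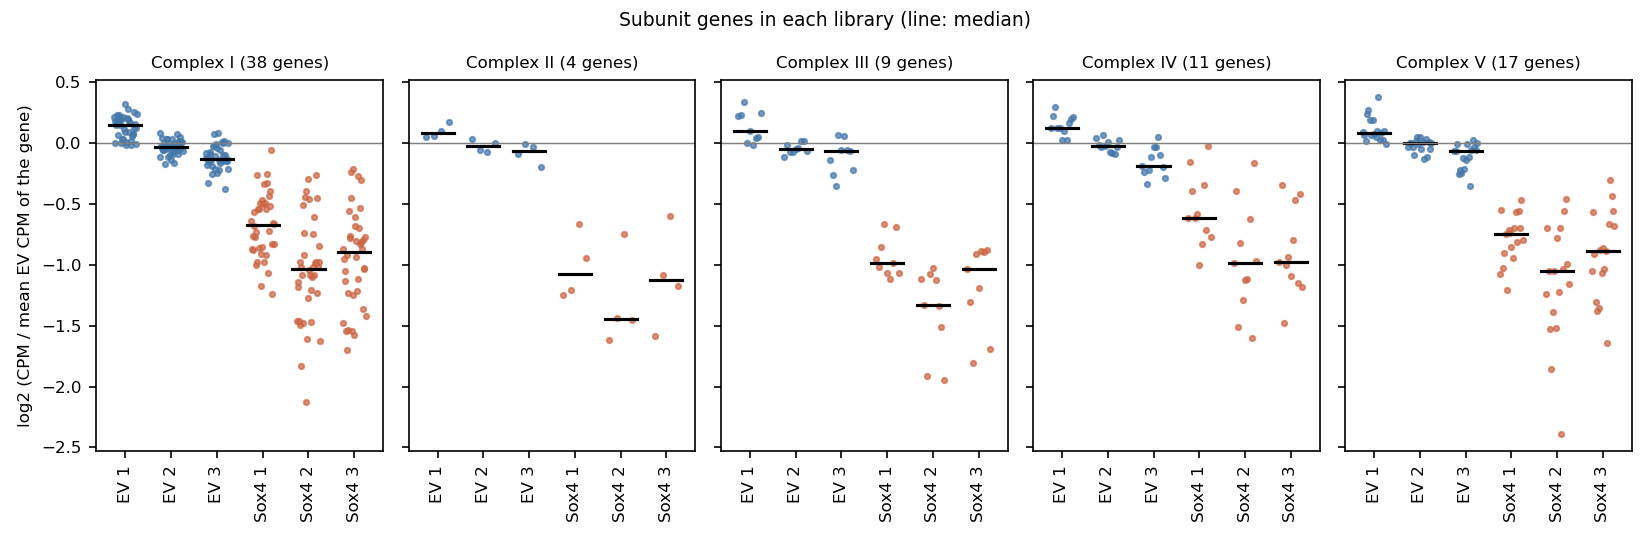
Level of each tested subunit gene in each library, as log2 of its CPM over the mean CPM of the 3 EV libraries, by complex (points: genes, black line: median of the library). Cox6b2 is left out because its EV counts are at the floor. Sox4 medians lie below EV medians in all complexes, and within the groups EV 1 and Sox4 1 have the highest medians in each panel.

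Libraries of a group differed together across members. Among the 76 tested members with a length and counts above the floor, EV 1 had the highest EV value in 64 and EV 3 the lowest in 60, and Sox4 1 had the highest Sox4 value in 53 and Sox4 2 the lowest in 52. Sox4 1 exceeded the mean of Sox4 2 and 3 by a median of 0.245 on the log2 scale, which is smaller than the fall of most members.

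Motifs of known activators of respiratory genes were counted in the promoters of the members. A window from 250 bases before to 50 bases after the transcript start was found for 70 of the 87 members in the RefSeq promoter table (GRCm38.p6), and 67 of these were tested. Motifs were searched on both strands: the palindromic core CGCATGCG and the shorter hexamer TGCGCA of NRF1, a nuclear activator of respiratory genes, the ETS motif CCGGAAG bound by GABPA, the YY1 motif AAGATGGC, the CCAAT box (CCAAT) and the TATA box (TATAAA). The core and the hexamer overlap where the longer palindrome occurs. The NRF1 core was in 13.4% of member promoters, against 4.36% of the promoters of tested genes and 2.07% of all 27025 genes. The YY1 motif was in 14.9%, against 5.36% and 3.19%, and the NRF1 hexamer in 26.9%, against 15.9% and 8.79%. The ETS motif was in 25.4%, against 20.6% and 9.93%. The CCAAT box was in 41.8%, against 43.5% and 41.1%, and the TATA box in 8.96%, against 9.18% and 15.7%. Median GC content was 58.7% in member promoters and 60.7% in those of tested genes. These matches are descriptions of letters and no evidence of binding.

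Promoter windows are shown for 5 genes that span the range of responses. They are the member with the lowest fold change in complex I (Ndufb10), the lowest in complex II (Sdha), a complex III core protein gene with the NRF1 core (Uqcrc1), the complex IV gene nearest to no change (Cox7c), and the ATP synthase inhibitor gene outside the rule, which was higher (Atpif1). Capitals mark the NRF1 core and hexamers and the CCAAT box on either strand, and Cox7c held none of the 6 motifs in this window.
Ndufb10 (chr17:24724374-24724673, minus strand): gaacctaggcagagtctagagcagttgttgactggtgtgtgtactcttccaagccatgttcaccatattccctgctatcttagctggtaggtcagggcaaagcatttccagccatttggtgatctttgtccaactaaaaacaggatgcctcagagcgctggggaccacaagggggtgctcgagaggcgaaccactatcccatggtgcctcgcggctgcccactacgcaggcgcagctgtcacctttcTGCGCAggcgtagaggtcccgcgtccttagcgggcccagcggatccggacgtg
Sdha (chr13:74350191-74350490, minus strand): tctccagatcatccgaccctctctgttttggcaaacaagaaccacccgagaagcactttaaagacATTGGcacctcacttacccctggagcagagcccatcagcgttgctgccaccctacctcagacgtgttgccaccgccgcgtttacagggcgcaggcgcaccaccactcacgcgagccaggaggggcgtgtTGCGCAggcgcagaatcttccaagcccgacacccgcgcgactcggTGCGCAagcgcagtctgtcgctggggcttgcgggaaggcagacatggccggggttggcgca
Uqcrc1 (chr9:108936398-108936697, plus strand): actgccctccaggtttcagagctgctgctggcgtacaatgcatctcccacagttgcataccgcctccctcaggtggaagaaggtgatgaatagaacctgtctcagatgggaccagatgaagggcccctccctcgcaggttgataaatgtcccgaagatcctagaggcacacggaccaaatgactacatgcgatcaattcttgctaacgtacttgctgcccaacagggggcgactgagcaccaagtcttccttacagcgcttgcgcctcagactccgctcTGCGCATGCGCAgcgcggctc
Cox7c (chr13:86046746-86047045, minus strand): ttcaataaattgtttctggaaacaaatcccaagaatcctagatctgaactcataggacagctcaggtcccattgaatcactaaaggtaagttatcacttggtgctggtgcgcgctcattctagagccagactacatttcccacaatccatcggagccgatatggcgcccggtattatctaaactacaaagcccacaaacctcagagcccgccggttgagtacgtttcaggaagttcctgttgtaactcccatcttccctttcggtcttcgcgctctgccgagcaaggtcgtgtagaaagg
Atpif1 (chr4:132535365-132535664, minus strand): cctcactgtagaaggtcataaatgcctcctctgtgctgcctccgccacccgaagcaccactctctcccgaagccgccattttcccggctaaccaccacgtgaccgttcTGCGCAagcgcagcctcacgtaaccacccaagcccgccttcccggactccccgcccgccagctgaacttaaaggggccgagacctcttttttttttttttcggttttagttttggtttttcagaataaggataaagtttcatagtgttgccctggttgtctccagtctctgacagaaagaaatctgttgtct
The NRF1 hexamer was thus in both the promoter of Ndufb10, the most reduced tested member, and that of Atpif1, which moved the opposite way.

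Complex I has a catalytic arm in the matrix and a proton-pumping arm in the membrane. All 7 nuclear core subunits, which hold the flavin and the iron-sulfur clusters, were lower, with a median log2 fold change of -0.88. Ndufs7, an iron-sulfur subunit at the ubiquinone site, measured 89.5, 82.7 and 74.4 CPM in EV and 34.7, 35.1 and 32.03 CPM in Sox4 (log2 fold change -1.27 ± 0.09, adjusted p = 1.41e-05), the smallest adjusted p of any member. The groups did not overlap.

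Other core genes fell too. Ndufv1, which binds FMN and oxidises NADH, had 187, 172 and 155 CPM in EV and 109, 86.8 and 84.1 CPM in Sox4 (log2 fold change -0.88 ± 0.14, adjusted p = 0.000459). Ndufv2, an iron-sulfur subunit beside it, had 104, 106 and 105 CPM in EV and 59.2, 58.4 and 61.7 CPM in Sox4 (log2 fold change -0.81 ± 0.02, adjusted p = 9e-05). Ndufs1, the largest iron-sulfur subunit, had 153, 155 and 155 CPM in EV and 73.7, 72.6 and 86.7 CPM in Sox4 (log2 fold change -0.99 ± 0.08, adjusted p = 6.81e-05). None of these overlapped between groups. Ndufs3 had a log2 fold change of -0.83, adjusted p = 0.000167, and Ndufs8, another iron-sulfur subunit, one of -0.96, adjusted p = 0.000119.

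Of the 31 accessory genes of complex I, 29 were lower, with a median of -0.89. The lowest fold change of all tested members was that of Ndufb10, a subunit of the membrane arm, with 108, 90.7 and 80.2 CPM in EV and 41.2, 21.4 and 31.8 CPM in Sox4 (log2 fold change -1.56 ± 0.30, adjusted p = 0.000449), or 33.8% of EV. Ndufa3, a small membrane-spanning subunit, had 41.5, 35.2 and 32.97 CPM in EV and 21.5, 10.3 and 11.3 CPM in Sox4 (log2 fold change -1.35 ± 0.35, adjusted p = 0.00253). Ndufa6, which anchors the acyl carrier protein to the matrix arm, had 127, 113 and 105 CPM in EV and 58.5, 41.2 and 39.6 CPM in Sox4 (log2 fold change -1.31 ± 0.20, adjusted p = 0.000116). In each of these genes the highest Sox4 library stood below the lowest EV library.

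At the other end of complex I the fold changes were nearer to 0. Ndufs4, a matrix arm subunit whose loss causes Leigh syndrome, had 60.6, 54.1 and 58.3 CPM in EV and 43.9, 48.2 and 46.8 CPM in Sox4 (log2 fold change -0.32 ± 0.06, adjusted p = 0.0254). Ndufab1, the mitochondrial acyl carrier protein, had 77.5, 70.2 and 79.9 CPM in EV and 52.2, 55.9 and 64.5 CPM in Sox4 (log2 fold change -0.40 ± 0.11, adjusted p = 0.0157). Ndufb2 had 7.01, 6.15 and 6.54 CPM in EV and 4.76, 5.36 and 5.68 CPM in Sox4 (log2 fold change -0.32 ± 0.09, adjusted p = 0.191). Groups did not overlap for these 3, yet Ndufb2 did not pass the test, and all 3 fold changes turned positive with library size alone (0.15, 0.07 and 0.15). The call for Ndufs4 was lost without EV 1 (adjusted p = 0.0732), EV 3 (0.0569) or Sox4 3 (0.0533), and that for Ndufab1 without Sox4 2 (0.0569). Ndufs6, the zinc-binding subunit, was the other complex I gene not to pass, with overlapping groups (42.7, 37.1 and 27.5 CPM in EV and 34.3, 26.2 and 20.6 CPM in Sox4, adjusted p = 0.139), and it passed without EV 3 (0.0393) or without Sox4 1 (0.0248). Calls for Ndufa7 and Ndufc2 were lost without EV 1, Sox4 2 or Sox4 3 (adjusted p from 0.0655 to 0.0722 and from 0.0506 to 0.0602), and that for Ndufc1 without EV 1, EV 2 or Sox4 2 (0.0619 to 0.13). With library size alone Ndufa7, Ndufc1, Ndufs6 and Ndufb1 were at 0.03, 0.04, 0.07 and 0.03.

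Complex II, or succinate dehydrogenase, serves both the respiratory chain and the TCA cycle, and its catalytic genes were among those with the lowest fold changes. Sdha, the flavoprotein that oxidises succinate, had 646, 639 and 585 CPM in EV and 263, 203 and 208 CPM in Sox4 (log2 fold change -1.47 ± 0.13, adjusted p = 2.79e-05), or 36.0% of EV. Sdhb, the iron-sulfur subunit, had 223, 206 and 213 CPM in EV and 92.5, 79.1 and 101 CPM in Sox4 (log2 fold change -1.23 ± 0.11, adjusted p = 3.3e-05). Both stayed lower with library size alone, at -1.004 and -0.77. The membrane anchors were lower too. Sdhd had 228, 202 and 177 CPM in EV and 105, 73.8 and 89.8 CPM in Sox4 (log2 fold change -1.18 ± 0.18, adjusted p = 0.00018), and Sdhc had 228, 203 and 208 CPM in EV and 134, 127 and 140.2 CPM in Sox4 (log2 fold change -0.67 ± 0.07, adjusted p = 0.000784). Sdhc was the only complex II gene whose call was lost with library size alone (-0.20, adjusted p = 0.149).

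In complex III every gene was lower under TMM and under library size alone. The 3 lowest fold changes were those of small accessory subunits, namely Uqcrq (250.3, 201 and 182 CPM in EV and 101, 54.7 and 65.3 CPM in Sox4, log2 fold change -1.52 ± 0.29, adjusted p = 0.000527), Uqcr11 (91.9, 69.02 and 56.8 CPM in EV and 40.1, 19.3 and 20.7 CPM in Sox4, log2 fold change -1.44 ± 0.39, adjusted p = 0.00664) and Uqcr10 (105, 88.4 and 74.7 CPM in EV and 44.2, 35.5 and 36.1 CPM in Sox4, log2 fold change -1.21 ± 0.17, adjusted p = 0.000111). Sox4 1 was above Sox4 2 and 3 in all of them, and the groups did not overlap. The catalytic genes had fold changes close to each other. Cyc1, which encodes cytochrome c1, had 298, 236 and 231 CPM in EV and 132, 117 and 124 CPM in Sox4 (log2 fold change -1.03 ± 0.13, adjusted p = 0.000167). Uqcrfs1, the Rieske iron-sulfur protein, had 286, 281 and 268 CPM in EV and 141, 110.4 and 149.7 CPM in Sox4 (log2 fold change -1.06 ± 0.14, adjusted p = 0.000169).

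The core proteins of complex III do not carry electrons, and their genes were added to those named after their values were seen. Uqcrc1 had 368, 331 and 330.1 CPM in EV and 164, 169 and 150.3 CPM in Sox4 (log2 fold change -1.09 ± 0.07, adjusted p = 5.47e-05), and Uqcrc2 had a log2 fold change of -1.04, adjusted p = 7.79e-05. The hinge protein gene Uqcrh (-0.98, adjusted p = 0.0017) and Uqcrb, which lies near the ubiquinone pocket (-0.87, adjusted p = 0.000287), had the fold changes nearest to 0. Uqcrb shares 25.5% of its exonic sequence with other gene models, so reads of near-identical copies could enter its count.

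Complex IV draws on isoform pairs, in which one gene is used in liver and most tissues and another in heart, muscle, lung or testis. The liver forms were lower. Cox4i1 had 368, 347 and 296 CPM in EV and 220.2, 169.9 and 171 CPM in Sox4 (log2 fold change -0.85 ± 0.15, adjusted p = 0.000986), Cox6a1 295, 283 and 232 CPM in EV and 176, 153 and 135 CPM in Sox4 (log2 fold change -0.81 ± 0.15, adjusted p = 0.0012) and Cox8a 173, 151 and 122 CPM in EV and 86.96, 75.8 and 65.4 CPM in Sox4 (log2 fold change -0.96 ± 0.19, adjusted p = 0.000617). Cox7a2 had 134, 119 and 122 CPM in EV and 70.6, 57.8 and 72.1 CPM in Sox4 (log2 fold change -0.91 ± 0.11, adjusted p = 0.000182). Groups did not overlap in these 4 genes, and Cox6a1 lost its call with library size alone (adjusted p = 0.0689). Cox7a2l, a factor of respiratory supercomplexes related to Cox7a2, changed less (92.7, 86.2 and 94.2 CPM in EV and 71.8, 59.2 and 65.7 CPM in Sox4, log2 fold change -0.47 ± 0.09, adjusted p = 0.00515) and was at -0.004 with library size alone.

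The forms of other tissues had no or few counts in both groups. Cox6a2, Cox8b, Cox8c and Cox7b2 had no count in any library, which allows up to 0.231 CPM, the value of 3 counts in the library with the smallest scaled size. Cox4i2, the lung form, had 0 counts in EV and 1, 3 and 0 in Sox4. Cox7a1, the heart form, had 6, 8 and 10 counts in EV and 3, 1 and 3 counts in Sox4, a ratio of 0.196 with a 95% interval from 0.0715 to 0.47 that covers counting error only. Cox6c2 had 13, 7 and 4 counts in EV and 1, 3 and 5 counts in Sox4, and it is annotated as a processed pseudogene with 52.7% of its sequence shared with Cox6c. These 7 genes were below the filter and were not tested.

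One isoform pair moved in opposite directions. Cox6b2, the testis form of the subunit that clamps the complex IV dimer, had 1, 1 and 2 counts in EV and 28, 21 and 20 counts in Sox4. With each EV library set to 3 counts, the Sox4 level was at least 5.156 times that of EV. The ratio of summed counts after scaling was 11.6 (95% interval 4.34 to 43.8, counting error only). Cox6b2 passed the filter on low counts only through its Sox4 counts, so its edgeR test (adjusted p = 0.000669) adds no separate support. Cox6b1, the common form, had 155, 139 and 131 CPM in EV and 94.8, 58.1 and 74.2 CPM in Sox4 (log2 fold change -0.91 ± 0.22, adjusted p = 0.00154). Even so, per kilobase of exon Cox6b2 reached a mean of 1.57 ± 0.284 CPM (SD, n = 3) in Sox4, against 122.5 ± 29.8 CPM for Cox6b1.

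The other complex IV genes ranged from a fall of about the family median to no call. Cox7b had 144, 121 and 121 CPM in EV and 78.3, 42.4 and 58.2 CPM in Sox4 (log2 fold change -1.11 ± 0.27, adjusted p = 0.00154) and Cox6c had 182, 181 and 175 CPM in EV and 89.4, 82.1 and 84.3 CPM in Sox4 (log2 fold change -1.07 ± 0.04, adjusted p = 2.59e-05). Cox5b had 98.9, 78.7 and 63.7 CPM in EV and 61.1, 28.2 and 28.9 CPM in Sox4 (log2 fold change -1.03 ± 0.41, adjusted p = 0.0349), with Sox4 1 close to the lowest EV library. Its call was lost without EV 1, EV 2, Sox4 2 or Sox4 3, at adjusted p between 0.0714 and 0.097. Cox5a and Cox7c did not pass the test. Cox5a had 131, 111 and 95.4 CPM in EV and 101, 85.7 and 88.3 CPM in Sox4 (adjusted p = 0.0936) and Cox7c had 175, 149 and 133 CPM in EV and 149.7, 136 and 114 CPM in Sox4 (adjusted p = 0.285), and the groups overlapped in both. Cox5a passed without EV 3 (adjusted p = 0.0332) or without Sox4 1 (0.0413), and 22.1% of Cox7c sequence is shared with other models.

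ATP synthase has a catalytic F1 head, a rotating ring of c subunits, a peripheral stalk and small membrane subunits. All 17 genes were lower and none overlapped between groups. Median log2 fold changes were -1.12 over the 5 F1 genes, -1.07 over the 3 c-subunit genes, -0.85 over the 4 stalk genes and -0.76 over the 5 membrane genes. The catalytic head is assembled from equal numbers of alpha and beta subunits. Atp5a1, the alpha subunit, had 1403, 1288 and 1258 CPM in EV and 626, 556 and 636 CPM in Sox4 (log2 fold change -1.12 ± 0.08, adjusted p = 0.000104), while Atp5b, the beta subunit that holds the catalytic sites, had 1473, 1405 and 1343 CPM in EV and 963, 865 and 948 CPM in Sox4 (log2 fold change -0.60 ± 0.06, adjusted p = 0.00368). Groups did not overlap for either gene. Atp5b was the only member among the 100 most abundant genes, and with library size alone it was at -0.14 (adjusted p = 0.394) and Atp5a1 at -0.65 (adjusted p = 0.00221). The difference between these genes was not tested.

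The c subunit is made from 3 genes on different chromosomes whose mature protein is the same, since the mitochondrial import signals that differ are cut off. The last 78 codons of the 3 coding sequences encode identical residues, and the genes differ there only in the choice of bases. The segments are shown because the product is shared while the RNA sequences are not. Capitals mark the 63 of 234 bases that are not the same in all 3 genes (GENCODE M21 models on GRCm38, stop codon left out).
Atp5g1 (chromosome 11): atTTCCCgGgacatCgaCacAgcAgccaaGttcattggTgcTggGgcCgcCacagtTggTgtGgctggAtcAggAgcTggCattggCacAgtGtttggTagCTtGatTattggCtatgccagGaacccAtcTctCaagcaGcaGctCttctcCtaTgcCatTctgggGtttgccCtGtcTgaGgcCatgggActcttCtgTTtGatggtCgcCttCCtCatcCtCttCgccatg
Atp5g2 (chromosome 15): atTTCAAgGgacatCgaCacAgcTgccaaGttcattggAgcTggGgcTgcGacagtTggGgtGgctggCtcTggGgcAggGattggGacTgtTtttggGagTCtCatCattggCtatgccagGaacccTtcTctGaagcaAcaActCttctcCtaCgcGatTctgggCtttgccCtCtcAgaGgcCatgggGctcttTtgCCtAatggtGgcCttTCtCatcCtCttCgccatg
Atp5g3 (chromosome 2): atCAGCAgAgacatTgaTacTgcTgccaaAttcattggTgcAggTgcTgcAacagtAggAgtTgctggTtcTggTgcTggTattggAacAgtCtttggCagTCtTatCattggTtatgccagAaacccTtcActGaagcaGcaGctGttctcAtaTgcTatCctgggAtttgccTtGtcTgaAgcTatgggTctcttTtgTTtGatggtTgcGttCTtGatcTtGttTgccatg
Atp5g1 and Atp5g2 were identical at 84.6% of these bases, Atp5g1 and Atp5g3 at 78.6%, and Atp5g2 and Atp5g3 at 77.4%.

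All 3 c-subunit genes were lower. Atp5g1, the form whose expression is known to vary most with physiological state, had 187, 166 and 138 CPM in EV and 71.1, 62.5 and 63.95 CPM in Sox4 (log2 fold change -1.32 ± 0.14, adjusted p = 3.49e-05). Atp5g2 had 82.7, 81.3 and 72.3 CPM in EV and 48.02, 38.00 and 42.8 CPM in Sox4 (log2 fold change -0.88 ± 0.11, adjusted p = 0.000224), and Atp5g3 had 419.8, 365 and 317 CPM in EV and 221, 128 and 176 CPM in Sox4 (log2 fold change -1.07 ± 0.26, adjusted p = 0.00146). No overlap between groups was seen, and the 3 calls held with library size alone (adjusted p = 0.000459, 0.0148 and 0.0247). Over all exons 38.3% of the exonic sequence of Atp5g2 and 11.1% of that of Atp5g1 is shared with other models, mostly pseudogenes.

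The remaining ATP synthase genes marked the ends of the range. Atp5k, the membrane subunit e, had 41.8, 29.3 and 25.2 CPM in EV and 21.7, 6.13 and 10.3 CPM in Sox4 (log2 fold change -1.34 ± 0.57, adjusted p = 0.0449), and its call was lost without any 1 of the EV libraries or without Sox4 3 (adjusted p between 0.0704 and 0.133). Atp5e, the epsilon subunit of the F1 stalk, had 144, 111 and 102 CPM in EV and 70.7, 32.8 and 45.7 CPM in Sox4 (log2 fold change -1.26 ± 0.35, adjusted p = 0.00503). Spread among Sox4 libraries was wide for both, with Sox4 1 highest. Atp5md and Atp5mpl, small membrane subunits, changed least. Atp5md had 95.01, 82.99 and 91.5 CPM in EV and 61.1, 61.2 and 72.8 CPM in Sox4 (log2 fold change -0.47 ± 0.10, adjusted p = 0.00693) and Atp5mpl had 75.3, 74.3 and 72.04 CPM in EV and 45.5, 53.8 and 54.7 CPM in Sox4 (log2 fold change -0.53 ± 0.09, adjusted p = 0.00274), and with library size alone they were at 0.0032 and -0.06.

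The inhibitor of ATP synthase moved against the enzyme. Atpif1, which blocks the F1 head when the proton gradient is lost, lies outside the symbol rule and had 7.09, 4.63 and 5.23 CPM in EV and 38.9, 34.1 and 30.5 CPM in Sox4 (log2 fold change 2.61 ± 0.21, adjusted p = 4.41e-06). All Sox4 libraries were above all EV libraries. About 25.2% of its sequence is shared with other models, mostly Gm12999. Ndufa4l2, a paralog of Ndufa4, went the other way from low counts (33, 14 and 15 counts in EV and 6, 0 and 2 counts in Sox4, adjusted p = 0.00378), and Dmac2l, an ATP synthase factor, did not pass (9.32, 6.45 and 7.92 CPM in EV and 6.37, 6.13 and 6.59 CPM in Sox4, adjusted p = 0.205).

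The subunits encoded by mitochondrial DNA gave no such call. None of the 13 mRNAs passed the test, none had an unadjusted p under 0.05, and their median log2 fold change was -0.08, against -0.94 for the nuclear members. The DESeq2 Wald test called 1 of them lower and limma-voom none, and library size alone gave 2 higher. Leaving out Sox4 1 gave 1 higher gene, and leaving out Sox4 2 or Sox4 3 gave 1 lower gene each. mt-Co1, a catalytic core subunit of complex IV, had 29140, 29740 and 31820 CPM in EV and 16220, 24670 and 25700 CPM in Sox4 (adjusted p = 0.0919), with all Sox4 libraries below EV. mt-Nd6 had 1438, 1449 and 1576 CPM in EV and 1105, 2145 and 2348 CPM in Sox4 (adjusted p = 0.297), mt-Nd2 5780, 5861 and 6997 CPM in EV and 3182, 6356 and 5282 CPM in Sox4 (adjusted p = 0.27) and mt-Nd3 48.9, 40.8 and 36.2 CPM in EV and 52.9, 38.3 and 42.6 CPM in Sox4 (adjusted p = 0.649). Sox4 1 lay below the other Sox4 libraries for mt-Co1, mt-Nd2 and mt-Nd6. Together the 13 took 5.32%, 5.38% and 5.86% of all counts in EV and 4.361%, 6.995% and 7.442% in Sox4, so that the Sox4 libraries fell on both sides of EV, whereas the nuclear members kept apart. Several of these genes, among them mt-Nd3, have nuclear copies that share nearly all of their sequence and are uncertain for that reason. The difference between the nuclear and mitochondrial lists was not tested.

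**Figure D3:**
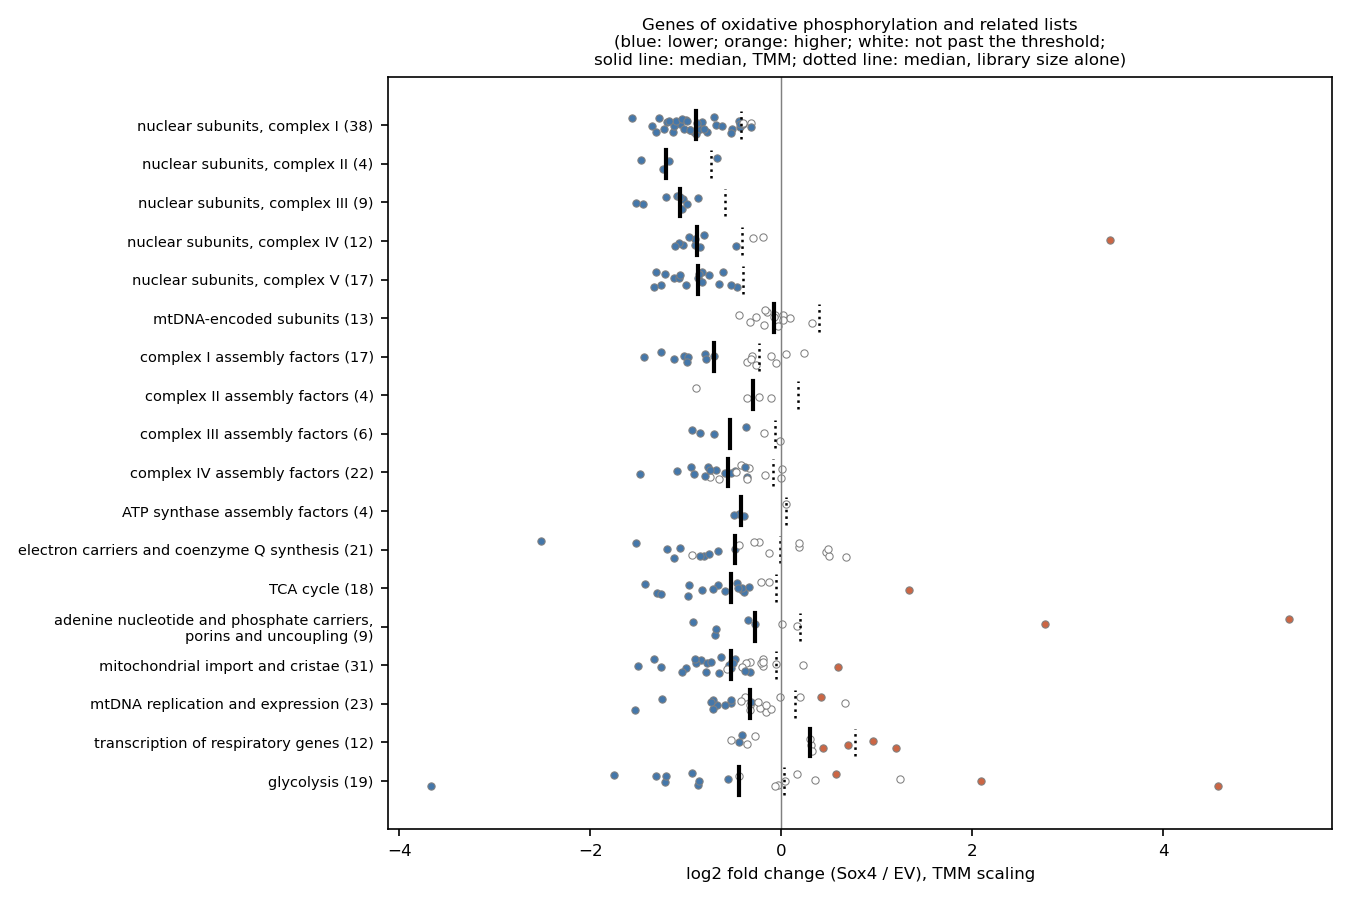
Log2 fold change (Sox4 over EV, TMM scaling) of each tested gene of the nuclear subunits by complex and of 13 related lists, with the number tested in brackets (blue: lower, orange: higher, white: not past the test). Solid lines are medians with TMM and dotted lines with library size alone. The TMM medians of the 5 complexes, from -1.21 to -0.88, lie left of those of the related lists, and the median of the mitochondrially encoded subunits is -0.08.

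Assembly factors build the complexes but are not part of them. Of 53 tested, 29 were lower and none higher at the threshold (none with an unadjusted p under 0.05 in that direction, and none by DESeq2 or limma-voom), with a median of -0.49, beside 75 of 80 lower for subunits, a difference that was not tested. Under TMM 26.0% of all tested genes were lower and 29.0% higher. Library size alone gave 8 lower and 7 higher, with a median of -0.02, beside 12.8% lower and 51.0% higher over all tested genes. By complex it gave 6 lower and 3 higher for complex I factors, 2 lower and 2 higher for complex IV factors, and 0 lower and 1 higher each for the factors of complex III and ATP synthase. Complex I factors had 9 of 17 lower, with Ndufaf8 (-1.44, adjusted p = 0.00399) and Ecsit (-1.26, adjusted p = 4.76e-05) at the low end, and Tmem186 (13.4, 10.1 and 12.7 CPM in EV and 14.3, 13.1 and 15.2 CPM in Sox4) and Ndufaf2 (6.32, 9.87 and 6.10 CPM in EV and 9.12, 6.03 and 7.86 CPM in Sox4) at the high end without a call. Complex IV factors had 13 of 22 lower, with Coa6, a copper delivery factor (-1.48, adjusted p = 0.000112), and Surf1, whose loss causes Leigh syndrome (-1.09, adjusted p = 0.000825), lowest, while Coa7 and Cmc1 were at 0.01 and -0.0021 (adjusted p = 0.963 and 0.993).

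The factors of the other complexes were few. Complex III factors had 4 of 6 lower, among them Uqcc3 (-0.93, adjusted p = 0.0134) and Lyrm7, which inserts the Rieske protein (-0.86, adjusted p = 0.0156), while Uqcc2 (-0.18, adjusted p = 0.559) and Ttc19 (-0.01, adjusted p = 0.946) did not pass. ATP synthase factors had 3 of 4 lower, namely Tmem242 (-0.50, adjusted p = 0.0161), Atpaf1 (-0.44, adjusted p = 0.0177) and Atpaf2 (-0.39, adjusted p = 0.0251), with Tmem70 at 0.05, adjusted p = 0.757. Without the filter on low counts 1 of these 4 stayed lower, and Atpaf1 and Atpaf2 lost their calls. Calls were lost for Tmem242 without EV 1, Sox4 2 or Sox4 3, for Atpaf1 without EV 2 or Sox4 3, for Atpaf2 without EV 1, EV 2, Sox4 2 or Sox4 3, and for Uqcc3 without Sox4 2, with log2 fold changes of -0.41, -0.46 and -0.42, of -0.41 and -0.39, of -0.37, -0.41, -0.37 and -0.40, and of -0.83. For complex II, where all subunit genes were lower, none of the 4 factors passed the edgeR test (1 had an unadjusted p under 0.05, DESeq2 called none and limma-voom called 1 lower). They were Sdhaf1 (-0.90, adjusted p = 0.0701), Sdhaf3 (-0.36, adjusted p = 0.121), Sdhaf2, which attaches FAD to Sdha (-0.23, adjusted p = 0.191), and Sdhaf4 (-0.10, adjusted p = 0.608).

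Electron carriers and the synthesis of ubiquinone, also called coenzyme Q, were lower in 10 of 21 tested genes and higher in none at the threshold, with a median of -0.48. One gene had an unadjusted p under 0.05 in the higher direction, and neither DESeq2 nor limma-voom called one, while the fit without the filter called 1 and the replicate block 2. The TMM background over all tested genes was 26.0% lower and 29.0% higher. Library size alone gave 5 lower and 5 higher, with a median of -0.01, beside 12.8% lower and 51.0% higher over all tested genes. Coq8a, an atypical kinase of coenzyme Q synthesis, had 764, 630.1 and 414 CPM in EV and 137, 86.5 and 93.1 CPM in Sox4 (log2 fold change -2.51 ± 0.33, adjusted p = 6.2e-05) and so a fold change below that of every tested subunit gene. Its paralog Coq8b had 17.03, 20.4 and 15.5 CPM in EV and 31.6, 25.7 and 17.4 CPM in Sox4 and did not pass (adjusted p = 0.0748). A second pair of paralogs divided the same way. Coq10a, a coenzyme Q binding protein, had 22.3, 20.3 and 19.6 CPM in EV and 7.67, 5.93 and 8.06 CPM in Sox4 (log2 fold change -1.52 ± 0.15, adjusted p = 4.47e-05), while Coq10b had 7.94, 17.8 and 25.2 CPM in EV and 21.5, 30.2 and 30.3 CPM in Sox4 (adjusted p = 0.165), with a wide spread among EV libraries. Cycs, the mobile cytochrome c, was named after its value was seen and was lower (-0.81, adjusted p = 0.00191).

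TCA cycle genes, which supply NADH and succinate, were lower in 15 of 18 cases with a median of -0.52, and 6 were lower with library size alone (median -0.05). Under TMM 26.0% of all tested genes were lower and 29.0% higher. Suclg2 (-1.43, adjusted p = 1.85e-05) and Idh3b (-1.30, adjusted p = 2.32e-05) were lowest. Idh2, the NADP-dependent isocitrate dehydrogenase, was the only one that rose, with 129, 132 and 106 CPM in EV and 339, 291 and 296 CPM in Sox4 (log2 fold change 1.33 ± 0.12, adjusted p = 3.44e-05), and Pdhb did not pass (-0.13, adjusted p = 0.432). Glycolysis genes were divided, with 9 lower (47.4%) and 3 higher (15.8%) of 19, and 7 lower and 6 higher with library size alone. On the library size scale 12.8% of all tested genes were lower and 51.0% higher. Aldoc (-3.67, adjusted p = 3.27e-06) and Tpi1 (-1.76, adjusted p = 2.74e-05) were lowest, and the isoform genes Ldhb (1.23, 0.835 and 0.508 CPM in EV and 16.9, 21.2 and 23.4 CPM in Sox4, log2 fold change 4.57 ± 0.35, adjusted p = 1.79e-06) and Pkm (1.08, 0.683 and 1.45 CPM in EV and 4.01, 4.24 and 5.57 CPM in Sox4, log2 fold change 2.09 ± 0.32, adjusted p = 0.000585) were highest.

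The list of transcriptional regulators of respiratory genes was broad and included Hif1a, Nfe2l2 and Tfam, which acts on mitochondrial DNA. Of its 12 tested genes, 4 were higher and 2 lower, with a median of 0.30. These shares, 33.3% and 16.7%, stand beside 29.0% and 26.0% of all tested genes. The split depended on the scaling, as library size alone gave 7 higher and 0 lower with a median of 0.77, where 51.0% of all genes were higher. Pprc1, a coactivator of the PGC-1 family, had 6.16, 10.9 and 12.3 CPM in EV and 19.3, 19.8 and 18.1 CPM in Sox4 (log2 fold change 0.96 ± 0.30, adjusted p = 0.00505), and Nfe2l2, the activator of antioxidant genes, had 119.6, 108 and 113 CPM in EV and 251, 259 and 276 CPM in Sox4 (log2 fold change 1.21 ± 0.06, adjusted p = 2.13e-05). Gabpb1 (0.70, adjusted p = 0.00153) and Hcfc1 (0.43, adjusted p = 0.00756) were also higher. Gabpa, the DNA-binding partner of Gabpb1, was lower (55.5, 52.2 and 63.8 CPM in EV and 38.2, 42.3 and 46.01 CPM in Sox4, log2 fold change -0.44 ± 0.12, adjusted p = 0.0118), as was Yy1 (-0.41, adjusted p = 0.00507), and with library size alone they were at 0.03 and 0.06, neither of them called. Gabpb1, Hcfc1 and Yy1 were named after their values were seen.

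The best known regulators did not pass the test. Ppargc1a, which encodes PGC-1alpha, had 10.1, 15.1 and 12.1 CPM in EV and 8.47, 18.3 and 19.5 CPM in Sox4 (adjusted p = 0.41), with Sox4 1 apart from Sox4 2 and 3. Ppargc1b had 3.24, 4.56 and 7.04 CPM in EV and 2.31, 3.58 and 4.46 CPM in Sox4 (adjusted p = 0.226). Nrf1 had 11.3, 10.3 and 10.7 CPM in EV and 11.98, 14.2 and 13.5 CPM in Sox4 (adjusted p = 0.108). Groups overlapped for the first pair and not for Nrf1, whose 3 Sox4 libraries were above EV. Esrra had a log2 fold change of -0.36, adjusted p = 0.263, and Tfam, which packages mitochondrial DNA and starts its transcription, one of -0.28, adjusted p = 0.0623.

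Genes for replication and expression of mitochondrial DNA were lower in 10 of 23 cases and higher in 1, with a median of -0.33, beside 26.0% lower and 29.0% higher over all genes. With library size alone 2 were lower and 3 higher, with a median of 0.14. All tested genes on that scale were 12.8% lower and 51.0% higher, with a median of 0.51. Polg2, the accessory subunit of the mitochondrial DNA polymerase, had 9.56, 8.05 and 8.57 CPM in EV and 2.81, 3.32 and 2.89 CPM in Sox4 (log2 fold change -1.54 ± 0.10, adjusted p = 0.000171), and Tfb1m, the methyltransferase of the small mitochondrial rRNA, had 11.2, 13.3 and 12.5 CPM in EV and 4.71, 5.57 and 5.27 CPM in Sox4 (log2 fold change -1.25 ± 0.10, adjusted p = 0.000204). Ssbp1, the single-strand binding protein, was the 1 higher gene (16.1, 21.03 and 21.4 CPM in EV and 26.4, 26.7 and 25.4 CPM in Sox4, log2 fold change 0.42 ± 0.13, adjusted p = 0.0282), and Mterf1a did not pass (0.67, adjusted p = 0.202). The call for Ssbp1 was lost without EV 1, EV 2 or Sox4 2, at log2 fold changes of 0.285, 0.46 and 0.41. Import and cristae genes were lower in 20 of 31 cases and higher in 1, with a median of -0.52, and library size alone gave 9 lower and 3 higher with a median of -0.05. Mfn2, which fuses outer membranes, had 174, 149 and 137 CPM in EV and 54.6, 47.04 and 61.5 CPM in Sox4 (log2 fold change -1.50 ± 0.15, adjusted p = 1.99e-05), and Micos13, a cristae junction subunit, had 57.3, 52.5 and 44.2 CPM in EV and 27.2, 15.8 and 17.9 CPM in Sox4 (log2 fold change -1.34 ± 0.26, adjusted p = 0.000467). Apool, a cardiolipin-binding cristae protein, was higher (0.59, adjusted p = 0.00549), and the import receptor Tomm20 did not pass (0.22, adjusted p = 0.0966).

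The carriers that exchange ATP for ADP across the inner membrane included isoforms that moved in opposite directions. Slc25a5, the main adenine nucleotide translocase of liver, had 494, 465 and 437 CPM in EV and 315, 291 and 258 CPM in Sox4 (log2 fold change -0.69 ± 0.10, adjusted p = 0.00154), while Slc25a4, the heart and muscle form, had 0.694, 0.532 and 0.654 CPM in EV and 24.3, 19.5 and 32.2 CPM in Sox4 (log2 fold change 5.32 ± 0.23, adjusted p = 7.68e-07). Groups did not overlap for either gene. Per kilobase of exon, Slc25a4 rose from 0.325 ± 0.044 to 13.2 ± 3.32 CPM and Slc25a5 went from 375 ± 22.9 to 232 ± 23.3 CPM, so Slc25a5 remained the more abundant form. Muscle markers were near 0, with a summed level of at most 0.153 CPM, and which cells the Slc25a4 RNA came from was not tested. Slc25a5 shares 33.8% of its sequence with other models and lost its call with library size alone (adjusted p = 0.164).

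**Figure D4:**
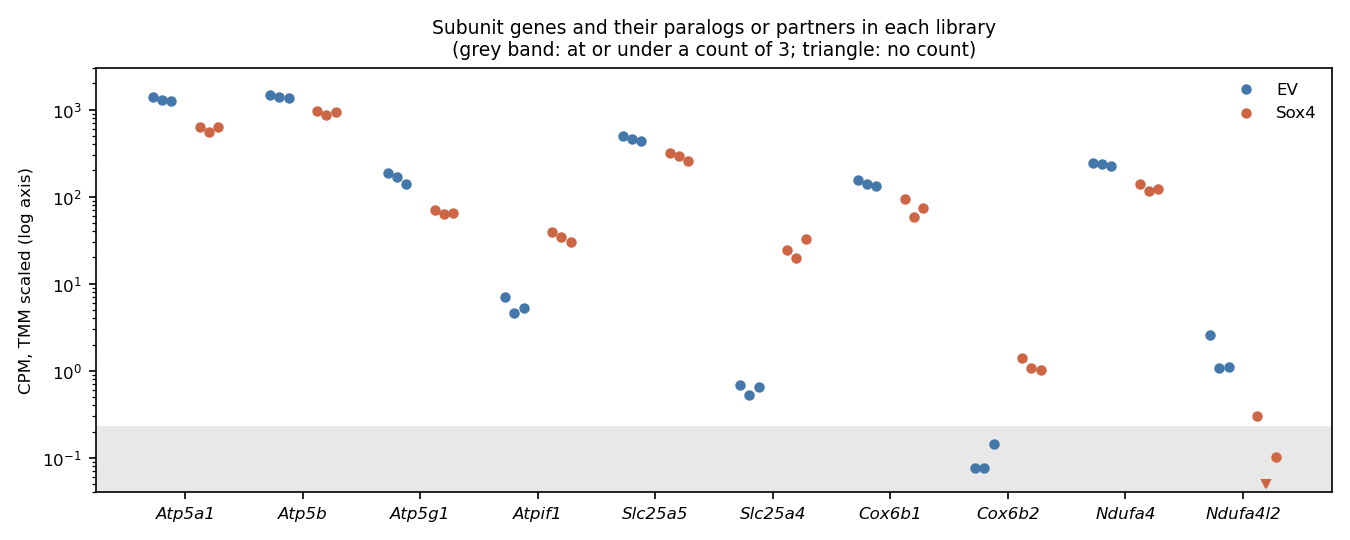
Level of 10 genes in each library on a log axis (CPM, TMM scaled, points: libraries, blue EV and orange Sox4), with the grey band marking a count of 3 or fewer and a triangle a count of 0. Atp5a1, Atp5b, Atp5g1, Slc25a5, Cox6b1 and Ndufa4 are lower in Sox4, and Atpif1, Slc25a4 and Cox6b2 are higher without overlap between groups.

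Other genes of this group moved with less uniformity. Of its 9 tested genes 5 were lower and 2 higher, with a median of -0.28, beside 26.0% lower and 29.0% higher over all tested genes. With library size alone 1 was lower and 4 were higher, with a median of 0.19. All tested genes on that scale were 12.8% lower and 51.0% higher, with a median of 0.51. Ucp2, an inner membrane transporter of the uncoupling protein family, had 11.3, 5.32 and 7.77 CPM in EV and 24.9, 61.1 and 79.5 CPM in Sox4 (log2 fold change 2.76 ± 0.59, adjusted p = 0.00425), with a wide spread among Sox4 libraries and all of them above EV. Vdac1, the main pore of the outer membrane, had 233, 225 and 207 CPM in EV and 119, 114 and 117 CPM in Sox4 (log2 fold change -0.93 ± 0.05, adjusted p = 9.1e-05). Ucp1 of brown fat and Ckmt2 of muscle had no count in any library.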

How the data were processed

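RNA of 6 hepatocyte libraries (3 EV, 3 Sox4) was sequenced. The authors aligned reads to GRCm39 with STAR 2.7.10b and counted them per gene symbol with featureCounts 2.0.1, as the submitters' processing notes name them, and deposited raw counts. Annotation release, strand setting and handling of reads with several matches are not given in the sources used here. A second deposited table holds a normalised signal, the counts divided by a DESeq2 median-of-ratios factor per library, and it was used only for an alternative.

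Sox4 and EV counts were compared by edgeR 4.0.16 under R 4.3.3 (filterByExpr with a minimum count of 10, TMM, robust quasi-likelihood test of Sox4 against EV), with Benjamini-Hochberg adjustment over all 12691 tested genes and a threshold of 0.05. The method was tested on simulated data, in which 155 of 200 genes changed 2-fold were recovered, with 12 false calls. Only these 200 of 12691 genes were changed there, whereas 55.1% of tested genes were called in the real data. Standard errors and SDs are over 3 libraries per group. Alternatives were DESeq2 1.42.0 size factors and Wald test, library size alone, upper quartile scaling, no filter, a mean count of at least 50, limma 3.58.1 (voom, and log2 of the deposited signal plus 1), a replicate block and each library left out. Total counts of 15090629 to 16964860 limit low genes: a count of 3 equals 0.15 to 0.231 CPM. Intervals and floors cover counting error only.

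The members and lists were chosen with earlier results of these data known. Named genes were the 3 highest and 3 lowest fold changes per complex, catalytic and isoform genes, members below the filter, 2 highest and 2 lowest per other list, and 7 transcriptional regulators, with additions said where made. The values of 1 gene are not reported here. Lengths and shared sequence (50-base words) came from GENCODE M21 models and promoters from RefSeq, both on GRCm38, and were matched by symbol (84 and 70 of 87 members). Over 10% of the sequence was shared with other models in 19 of 84 members, whose counts are uncertain.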

Additional observations from a re-analysis of the deposited data

How the results depend on the processing

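The fall of the members kept its direction under all alternatives run, and library size alone changed its size most. With library size alone the median log2 fold change was -0.4662 over members, -0.4194 in complex I (22 genes changed), -0.736 in complex II, -0.5887 in complex III, -0.4081 in complex IV and -0.4054 in complex V, and the sign turned for 10 members, of which Ndufa7 (0.0323), Ndufb1 (0.0254), Ndufc1 (0.0362) and Ndufs6 (0.0682) are outside the named set, and in the named set for Ndufab1 (0.0707), Ndufb2 (0.151), Ndufs4 (0.1519), Cox5a (0.1752), Cox7c (0.2758), Atp5md (0.0032), mt-Co1 (0.0241), mt-Nd2 (0.1392), Sdhaf3 (0.1077), Sdhaf2 (0.2398), Sdhaf4 (0.3656), Uqcc2 (0.2928), Ttc19 (0.4578), Cmc1 (0.4663), Atpaf1 (0.0291), Atpaf2 (0.076), Pdhb (0.3372), Gabpa (0.0312), Dmac2l (0.156), Esrra (0.1092) and Tfam (0.1902). With a mean count of at least 50, 0 members were higher because Cox6b2 was not tested. Among the counts of tested genes outside the 100 most abundant, the share of the members in Sox4 was 0.63 of that in EV. This share leaves out Atp5b, so it does not cover the same genes as the share of all counts.

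The sign of small fold changes also turned for Ttc19 (0.0419) and Cmc1 (0.052) with upper quartile, Ttc19 (0.0285) and Cmc1 (0.039) with no filter, Ttc19 (0.0161) and Cmc1 (0.0253) with mean count of at least 50, Cmc1 (0.0115) with limma-voom, Cmc1 (0.0131) with limma on deposited values, Cmc1 (0.0108) with replicate block. Over the fits that left out 1 library, 70 to 78 members changed (69 to 77 lower), the median was -1.0074 to -0.8353, and 32 to 37 complex I, 9 to 11 complex IV and 16 to 17 complex V genes changed. Values ranged over both signs for Cmc1 (-0.1626 to 0.0892), Coa7 (-0.0886 to 0.1265), Ndufaf2 (-0.1008 to 0.2879), Tmem70 (-0.043 to 0.1601), Ttc19 (-0.0982 to 0.0608), mt-Nd3 (-0.0551 to 0.1951). For the 104 genes of the named set, over all alternatives, 1434 values kept direction and side of the threshold, 32 came to pass it, 44 ceased to and 46 turned sign.

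Across genes, deviations of same-numbered libraries from their group means correlated at 0.273, -0.09 and 0.131. For differently numbered libraries the values ran from -0.272 to 0.177. Whether same-numbered libraries share more than a number was not tested. With the replicate block 7362 of all genes changed, and Cox5a (adjusted p = 0.0403) and Ndufs6 (0.00901) passed, while Ucp2 (log2 fold change 2.6574) lost its call. Without the filter the calls of Atp5k (adjusted p = 0.2), Cox5b (0.103) and Ndufs4 (0.114) were lost, as were those of Atpaf1 (log2 fold change -0.4002) and Atpaf2 (-0.3522), while Ndufs6 (adjusted p = 0.0475) and Coq8b (0.5389 on the log2 scale) passed, and with upper quartile scaling those of Ndufs4 (0.0541) and Ndufc1 (0.0584). The cause of these changes was not tested. Libraries of 3 per group limit small changes, and counts near the floor limit the isoform genes.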

Other observations

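The spread between libraries of a group moved with transcript length among the members. Over 76 members, log2 exon length and the excess of Sox4 1 over Sox4 2 and 3 had a Pearson r of -0.479 (Spearman rho -0.488), and length and the excess of EV 1 over EV 2 and 3 had an r of -0.343 (rho -0.324). The points share 6 libraries, so these values are descriptions. Members under 1000 bases exceeded in Sox4 1 by a median of 0.387 on the log2 scale (36 of 38 above 0) and longer ones by 0.138 (29 of 38). In EV 1 the medians were 0.268 (38 of 38) and 0.143 (32 of 38). Length and the log2 fold change between groups had an r of 0.113 (rho 0.071).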
